A study of Mus musculus with 9 samples.

Results

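The genes that make, read and clear cyclic AMP were followed in the whole ovaries of WT mice and of ERβKO mice, which lack the estrogen receptor ERβ. The set held 41 genes of the 46078 in the count table, chosen by name: 5 genes for receptors and their ligand, 1 for the stimulatory G protein Gs, 10 adenylyl cyclases, 6 subunits of protein kinase A, 15 phosphodiesterases and 4 effectors that respond to cyclic AMP or to the kinase. RNA-seq libraries came from 5 WT and 4 ERβKO ovaries on the C57BL/6J background, with 1 library for each animal. In the ERβKO mice exon 3 of Esr2 had been removed from the germline by crossing floxed mice with a Rosa26-Cre deleter line, followed by heterozygous breeding, and the WT mice were offspring that carried no Cre. The labels give every mouse as untreated. The mice were between 4 and 20 weeks old by the range set for all experiments, and no stage of the cycle was chosen for collection. The treatment text that the labels share also describes a high-fat or control diet over 13 weeks and injections of DPN or vehicle. It does not say which of these a given mouse received.

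Cyclic AMP is the second messenger through which the gonadotropins act on the ovary. Hormone receptors coupled to Gs switch on adenylyl cyclases, which make cyclic AMP from ATP, and phosphodiesterases break it down again. Cyclic AMP binds the regulatory subunits of protein kinase A and frees the catalytic subunits, which phosphorylate transcription factors such as CREB, and it also acts directly on the exchange factors EPAC1 and EPAC2. In granulosa cells this route carries the response to FSH, and after the LH surge it drives ovulation and the change into luteal cells.

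Between 12353740 and 18717510 fragments were counted per library. All 41 genes were in the table, 39 passed the filter on low counts, and 34 averaged more than 1 FPKM in WT or ERβKO ovaries. On the first principal component WT replicate 2 (9.43) stood apart from its group, since the remaining WT ovaries ran from -43.8 to -15.6 and those without ERβ from 19.4 to 35.4. The counts of the whole Esr2 gene did not check the genotype, since only exon 3 is deleted: its FPKM ranged from 12.4 to 23.9 in WT and from 10.5 to 23.7 in ERβKO ovaries. Markers showed a tissue of mixed cells. The summed CPM (counts scaled to library size) of 10 granulosa markers ranged from 2579 to 3724 in WT and from 3360 to 4782 in ERβKO ovaries, those of 10 luteal markers from 8936 to 21112 and from 7136 to 11835, and those of 10 adipocyte markers from 444 to 720 and from 411 to 2595. Theca markers (8 genes) summed to 1811 to 2549 CPM in WT and to 2725 to 5203 CPM in ERβKO ovaries. Single genes weighed on this sum: of the theca markers Aldh1a1 had a log2 fold change of 1.05 and Cyp17a1 of 2.35, against 0.03 for Ptch1, 0.12 for Gli1 and -0.79 for Mgarp (median of the list 0.21). The median log2 fold change of the neuron and Schwann cell markers was 0.23. None of these markers was at 0 in all libraries, although the theca gene Insl3 and the Schwann cell gene Sox10 stayed under 10 counts in every library. The endothelial, smooth muscle, macrophage, oocyte and epithelial lists overlapped between the genotypes.

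One member met every criterion for a difference between the genotypes. Prkar2b, the gene for the regulatory subunit RIIβ of protein kinase A, rose in ERβKO ovaries. It was 1 of 39 tested members, or 2.56%, where 1.72% of all tested genes were called (0.915% higher and 0.801% lower). A call required, in edgeR's quasi-likelihood test, an adjusted p below 0.05 and a log2 fold change of more than 0.4 in either direction, and also a mean FPKM above 1 in WT or ERβKO ovaries. With an unadjusted p under 0.05 in edgeR, 7 members were higher and 8 lower, which is 38.5% of those tested against 19.8% of all tested genes (9.81% higher and 10.0% lower). The median log2 fold change (ERβKO over WT) of the tested members was -0.073, and that of all tested genes was close to 0 (-0.00089). DESeq2, the tool of the study, called 5 members (12.8%, against 4.78% of all tested genes, 2.22% higher and 2.56% lower): Prkar2b and Pde8b were higher, and Pde1b, Pde4a and Adcyap1 were lower. Of the tested members, 15 had a positive and 24 a negative fold change, and the plot of fold changes by class shows most of them within 0.4 of 0.

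**Figure D1:**
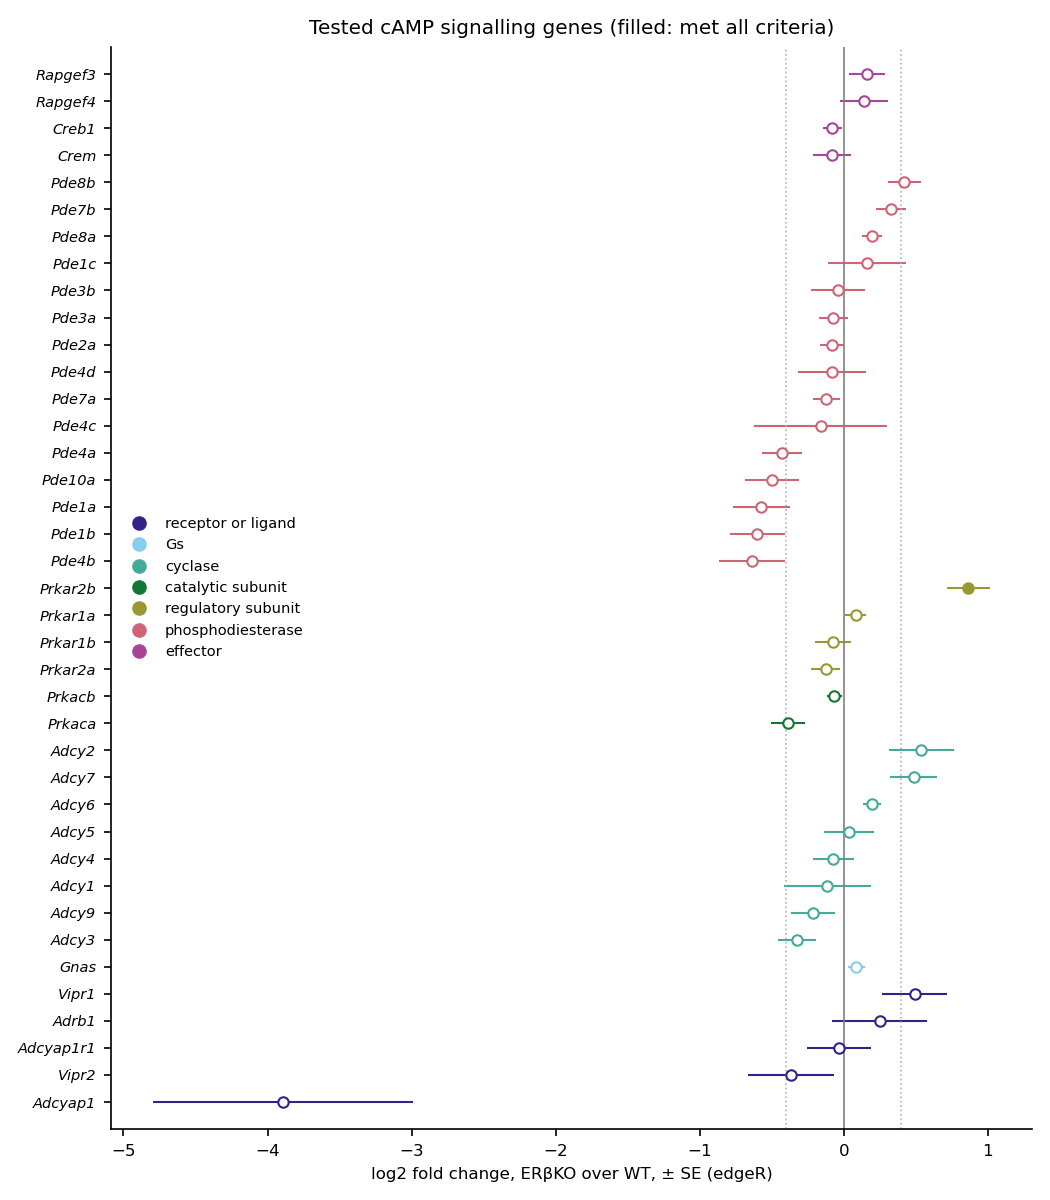
Log2 fold change of ERβKO over WT for the 39 tested genes, with bars of 1 standard error from edgeR, coloured by class. The filled point is Prkar2b (0.86), the open points did not meet all criteria, dotted lines mark 0.4 in either direction, and Adcyap1 lies far to the left at -3.89.

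Gene starts and their upstream sequences are shown for the members on which the results turn, to place them on the genome. Prkar2b lies on the minus strand of chromosome 12 (31958476 to 32061296) and Adcyap1 on the plus strand of chromosome 17 (93199422 to 93205485), in the coordinates of the deposited files (GRCm38). The stretch shown for Prkar2b ends at the deposited gene border, and that for Adcyap1 ends 1 base before the most upstream start in RefSeq. All sequences are from RefSeq promoter windows on GRCm38.p6, written 5′ to 3′ on the gene's strand, with matches to the searched elements in capitals. The first is chr12:32061297-32061527 (minus strand, 75.8% G and C), and the second is chr17:93198767-93199016 (plus strand, 39.6% G and C).
Prkar2b: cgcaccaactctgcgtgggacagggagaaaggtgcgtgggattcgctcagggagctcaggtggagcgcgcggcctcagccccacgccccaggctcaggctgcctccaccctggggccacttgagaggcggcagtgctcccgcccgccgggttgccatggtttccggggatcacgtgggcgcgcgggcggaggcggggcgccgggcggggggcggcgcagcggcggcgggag
Adcyap1: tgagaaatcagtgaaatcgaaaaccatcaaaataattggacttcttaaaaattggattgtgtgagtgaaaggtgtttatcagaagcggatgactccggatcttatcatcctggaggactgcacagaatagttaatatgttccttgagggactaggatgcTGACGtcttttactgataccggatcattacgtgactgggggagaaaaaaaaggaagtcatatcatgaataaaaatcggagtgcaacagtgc
The elements searched on both strands were the full cyclic AMP response element TGACGTCA, its shorter part CGTCA (which also lies inside the full element), the palindromic estrogen response element and the NR5A element TCAAGGTCA. No searched element was in the Prkar2b stretch, while the Adcyap1 stretch held 1 copy of the short part. It lay 91 bases before the most upstream RefSeq start, which is itself upstream of the deposited gene border at 93199422. Of the 41 genes, 35 matched the table of promoter windows, and Adcy6, Adcy8, Pde7a, Pde3a, Pde3b and Crem did not.

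The 76 promoter windows of members came from 35 genes, so that 1 gene can count more than once. Of these windows, 23 held CGTCA (30.3%), in 18 genes, compared with 20.8% of all 32851 windows. A share over all genes was not taken. The full element was in 2 windows, both of Prkar1a (2.63%, against 1.79% of all windows). The palindromic estrogen response element was in 1 window, of Pde10a (1.32%, against 0.07% of all windows), and TCAAGGTCA was in none (0.423% of all windows). The 30 bases around each of these elements are given for Prkar1a (chr11:109650889-109650918, plus strand) and for Pde10a (chr17:8849993-8850022, plus strand), because they are the only members whose windows held them.
Prkar1a: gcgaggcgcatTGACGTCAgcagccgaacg
Pde10a: agggcggttGGTCAACCTGACCagagggag
A match describes the letters of the window and was not read as a bound site. The element of Pde10a begins at base 18 after the start of its transcript. Both stretches lie inside the deposited gene borders and not at the deposited gene start. These borders were 109649405 to 109669656 for Prkar1a and 8525372 to 8986648 for Pde10a.

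Upstream of the cyclases, the gene of the ligand PACAP had the largest fold change of the tested members, which missed the edgeR threshold. Adcyap1, the gene for PACAP, a neuropeptide that granulosa cells also make before ovulation, had FPKM of 2.79, 0.777, 7.82, 1.45 and 3.88 in the 5 WT ovaries. In the 4 ERβKO ovaries it was at 0.682, listed at 0, listed at 0, and at 0.0706. The counts behind these values were 43 to 372 in WT ovaries and 39, 1, 3 and 3 in ERβKO ovaries. Every ERβKO ovary was lower than every WT ovary, and the gap between WT replicate 2 and ERβKO replicate 1 was small beside the spread among the WT ovaries. On the log2 scale the difference was -3.89 ± 0.90 (SE). It missed the threshold with edgeR's quasi-likelihood test, where the adjusted p was 0.0552, and passed it with DESeq2 (adjusted p = 0.0046). The exact permutation test of the mean FPKM gave p = 0.0159, the smallest value that 5 against 4 ovaries allow. Any groups without overlap give this value, so it restates the lack of overlap. Without ERβKO replicate 1 the log2 fold change was -6.04 (adjusted p = 0.020 by edgeR's quasi-likelihood test). Without WT replicate 2 it was -4.14 (adjusted p = 0.0201 by edgeR's quasi-likelihood test). With any other single ovary left out, the adjusted p in the same edgeR test lay between 0.0740 (without WT replicate 3) and 0.153 (without ERβKO replicate 2), short of the threshold. The part of granulosa cells, or of neurons and Schwann cells, in the Adcyap1 values was not tested.

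The PACAP receptor gene Adcyap1r1, the member of highest level among the receptors, had FPKM of 1.77, 1.15, 2.77, 1.69 and 1.87 in WT and of 4.03, 1.99, 1.32 and 1.67 in ERβKO ovaries. The groups overlapped, and ERβKO replicate 1 was the highest of all 9 ovaries. Its log2 fold change was -0.03 ± 0.22 (adjusted p = 0.952 by edgeR's quasi-likelihood test), and the sign turned in 6 of 19 alternatives. The receptors for VIP, a peptide of the same family that shares receptors with PACAP, were lower in level. Vipr1 was at 1.21 ± 0.446 (SD, n = 5) in WT and 1.80 ± 0.353 (n = 4) in ERβKO ovaries, with a log2 fold change of 0.49 ± 0.23 (edgeR's quasi-likelihood test, adjusted p = 0.260). Vipr1 met the criteria in 1 of 19 alternatives, edgeR's quasi-likelihood test without WT replicate 2, at 0.71 (adjusted p = 0.0404). Vipr2 (0.346 FPKM in WT and 0.275 in ERβKO ovaries) and the β1-adrenergic receptor gene Adrb1 (0.200 and 0.247) were below 1 FPKM in both genotypes, and neither met the criteria.

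Gnas, the gene for the α subunit of Gs that couples these receptors to the cyclases, was the most abundant member. It had FPKM of 244, 232, 277, 232 and 234 in WT and of 241, 269, 245 and 245 in ERβKO ovaries. The genotypes overlapped, with WT replicate 3 and ERβKO replicate 2 above the rest of their groups. The difference in log2 was 0.09 ± 0.06 (adjusted p = 0.431 by edgeR's quasi-likelihood test), and 22.0% of the exon bases of Gnas lie opposite exons of antisense genes.

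Among the adenylyl cyclases, which make cyclic AMP, none of the 8 tested met the criteria. Adcy6, a cyclase inhibited by calcium, had the highest level of the class, with FPKM of 14.2, 15.6, 14.2, 14.3 and 12.8 in WT and of 18.5, 17.5, 15.7 and 15.4 in ERβKO ovaries. The groups overlapped only at WT replicate 2, which lay above ERβKO replicate 4. Its log2 fold change was 0.20 ± 0.06 (edgeR's quasi-likelihood test, adjusted p = 0.133), with an exact permutation p of 0.0317 for the mean FPKM. As a share of the summed FPKM of the 10 cyclases it made up 36.2% ± 1.67 (SD, n = 5) in WT and 39.1% ± 2.38 (n = 4) in ERβKO ovaries. Adcy9 followed in the order of levels at 22.9% ± 4.62 and 18.1% ± 2.74.

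The other cyclases were spread over a wide range of levels. Adcy7 went from 4.62 ± 1.16 FPKM in WT to 6.50 ± 0.903 in ERβKO ovaries (log2 fold change 0.49 ± 0.16). Adcy2, a cyclase stimulated by the βγ subunits of G proteins, was at 1.63 ± 0.501 and 2.38 ± 0.496 FPKM (log2 fold change 0.54 ± 0.23). It met the criteria in 1 of 19 alternatives, without WT replicate 2 (0.74). Adcy3 was at 4.68 ± 0.789 and 4.02 ± 0.475 FPKM (log2 fold change -0.33 ± 0.13), and 22.1% of its exon bases lie opposite exons of Cenpo. With the unadjusted p of edgeR, 3 cyclases were higher and 1 lower under 0.05 (Adcy6, Adcy7 and Adcy2, against Adcy3), while the adjusted p by edgeR's quasi-likelihood test lay between 0.133 (Adcy6) and 0.224 (Adcy2). Adcy9, Adcy5 and Adcy4 had log2 fold changes of -0.21, 0.04 and -0.07. The calcium-stimulated Adcy1 was near 0.1 FPKM in both genotypes. Adcy8 (2 to 15 counts per library), which is stimulated by calcium too, and the soluble cyclase Adcy10 (1 to 16 counts) were too low to be tested.

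**Figure D2:**
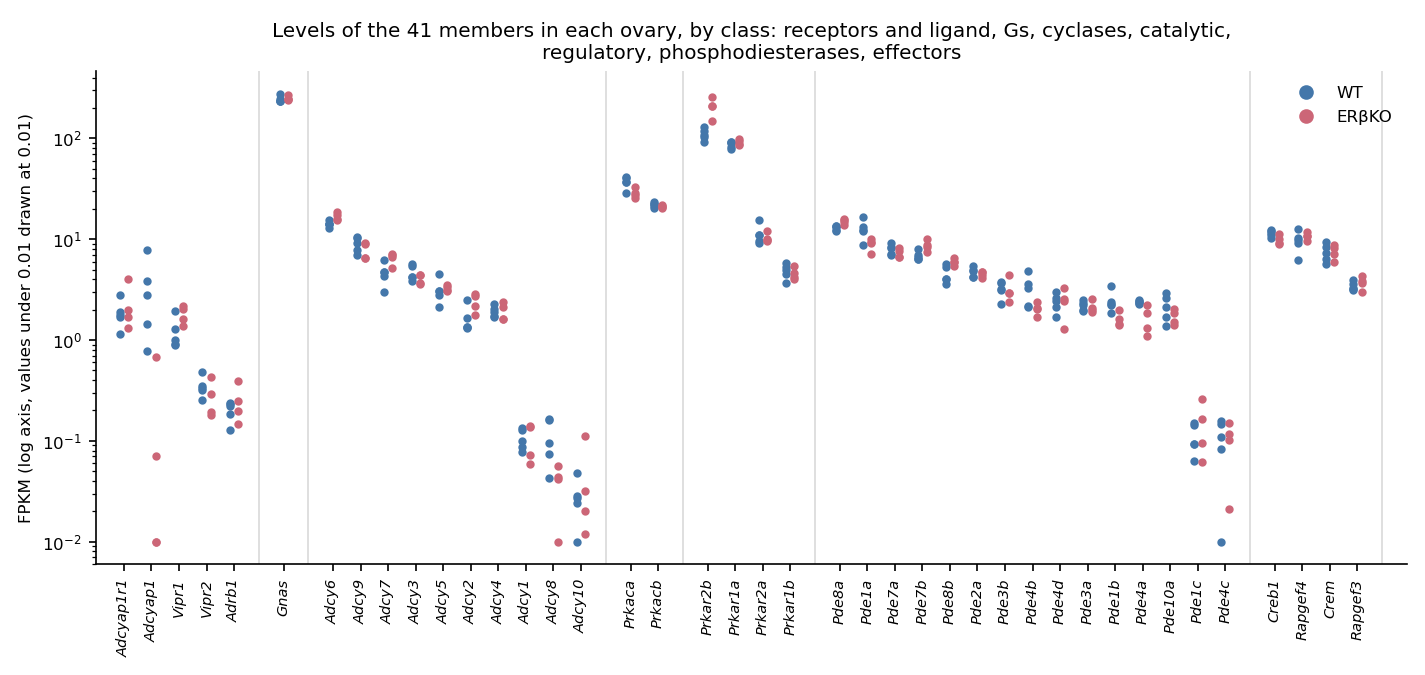
FPKM of the 41 genes in each of the 5 WT and 4 ERβKO ovaries on a log axis, ordered by level inside each class, with 1 point per ovary. Gnas, Prkar2b and Prkar1a have the highest levels, and Adcyap1 is the gene with the widest gap between the genotypes, drawn at 0.01 where it was listed at 0.

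The regulatory subunits of protein kinase A hold the kinase inactive until cyclic AMP binds, and they set where in the cell it is anchored. Prkar2b had FPKM of 103, 130, 118, 91.5 and 109 in the WT ovaries and of 150, 256, 209 and 208 in the ERβKO ovaries. The genotypes did not overlap, with ERβKO replicate 1 the lowest of its group and ERβKO replicate 2 the highest. The mean was 110 ± 14.8 (SD, n = 5) in WT and 206 ± 43.4 (n = 4) in ERβKO ovaries, a ratio of 1.87. The log2 fold change was 0.86 ± 0.15 (SE), with an adjusted p of 0.0215 by edgeR's quasi-likelihood test and 2.1e-05 by DESeq2. The exact permutation p for the mean FPKM was 0.0159, the smallest possible, which any groups without overlap give. The log2 fold change stayed between 0.75 and 1.00 when single ovaries were left out. However, the adjusted p by edgeR's quasi-likelihood test was 0.0641 without WT replicate 1, 0.0749 without ERβKO replicate 2, 0.0573 without ERβKO replicate 3 and 0.0724 without ERβKO replicate 4. RNA of a whole ovary does not tell fewer or more cells of a type apart from less or more RNA per cell. Log2 fold changes were positive for 9 of 10 granulosa, 10 of 10 adipocyte and 6 of 7 tested theca markers. For neuron and Schwann cells it was 5 of 7 tested markers, for oocytes 7 of 8, and for macrophages and epithelium 6 of 8 each. Luteal markers were positive for 1 of 10, endothelial for 1 of 8 and smooth muscle for 3 of 8. The part of any of these cells in the Prkar2b result was not tested.

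The other regulatory subunits did not meet the criteria. Prkar1a, the gene for RIα, had 86.9 ± 6.07 FPKM in WT and 91.8 ± 5.54 in ERβKO ovaries (log2 fold change 0.08 ± 0.07). Prkar2a, for RIIα, was at 11.3 ± 2.47 and 10.3 ± 1.08 FPKM, and Prkar1b, for RIβ, was at 4.87 ± 0.821 and 4.57 ± 0.593 FPKM. In the sum of the 4 regulatory subunits, Prkar2b took 48.7% to 53.8% in the WT ovaries and 57.6% to 71.7% in the ERβKO ovaries. Prkar1a took 37.4% to 43.6% in WT and 24.2% to 35.8% in ERβKO ovaries. The share of Prkar2b was 13.8 percentage points higher in ERβKO ovaries, and from 11.6 to 16.3 points with single ovaries left out. These shares are a description, since Prkar2b is itself part of the sum.

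**Figure D3:**
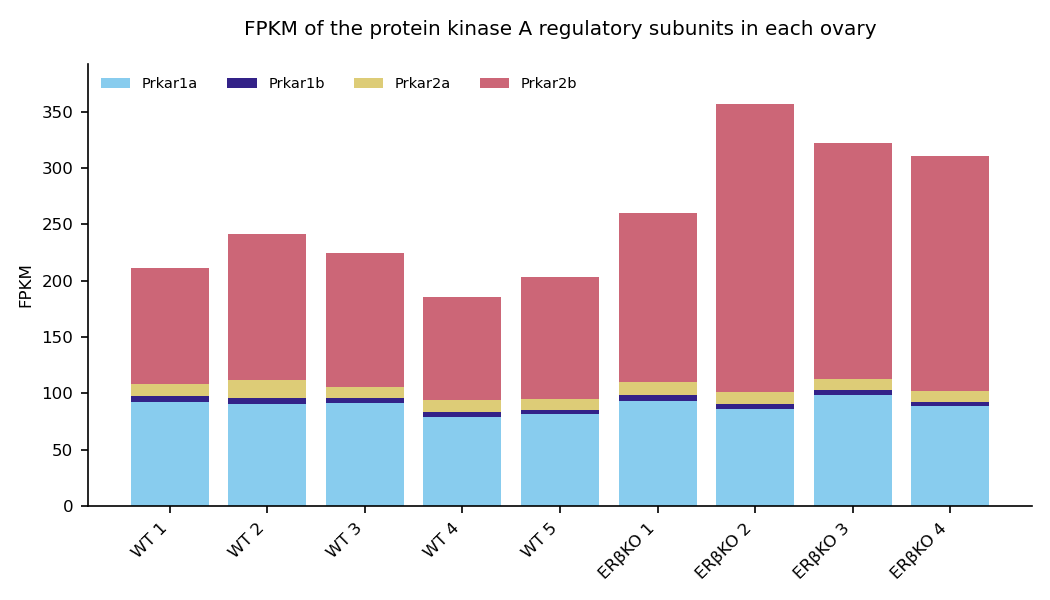
FPKM of the 4 regulatory subunit genes of protein kinase A stacked for each ovary, with the axis starting at 0. The summed FPKM ran from 186 to 242 in WT and from 260 to 357 in ERβKO ovaries, and the part of the bars for Prkar2b is the one that is taller in ERβKO ovaries.

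Of the catalytic subunits, which carry the kinase activity, Prkaca (Cα) had the higher level. Its FPKM were 40.8, 28.5, 37.0, 36.8 and 41.1 in WT and 32.6, 27.4, 28.8 and 25.9 in ERβKO ovaries. Except for WT replicate 2, every WT ovary was above every ERβKO ovary. The log2 fold change was -0.39 ± 0.12 and just short of the limit of 0.4, with an adjusted p of 0.110 by edgeR's quasi-likelihood test and 0.0320 by DESeq2. Without WT replicate 2 it was -0.47, and edgeR's quasi-likelihood test then gave an adjusted p of 0.0129. Prkaca met the criteria in only this 1 of 19 alternatives. Prkacb (Cβ) was at 21.8 ± 1.04 FPKM in WT and 21.1 ± 0.639 in ERβKO ovaries, with a log2 fold change of -0.07 ± 0.05. Summed over both genes, the catalytic subunits had 58.7 ± 4.49 FPKM in WT and 49.7 ± 2.68 in ERβKO ovaries, while the summed regulatory subunits had 213 ± 21.1 and 313 ± 40.0. The sums of the catalytic subunits overlapped between the genotypes and those of the regulatory subunits did not.

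**Figure D4:**
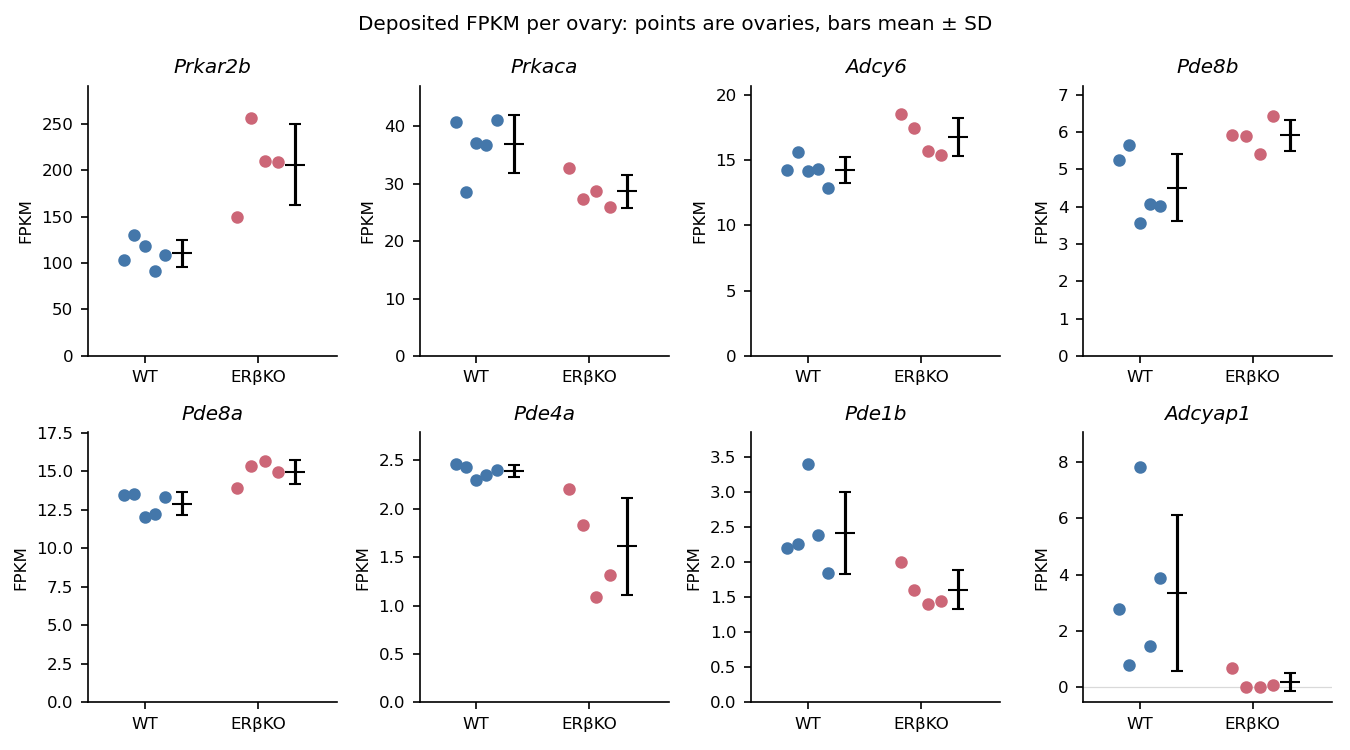
Deposited FPKM of 8 members in each ovary, with points for the 5 WT and 4 ERβKO ovaries and bars for the mean ± SD. Prkar2b and Pde8a lie higher and Pde4a and Adcyap1 lower in every ERβKO ovary than in any WT ovary, and Adcy6, Pde8b, Pde1b and Prkaca overlap.

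The phosphodiesterases, which break cyclic AMP down, are the largest class, and 8 of 15 had an unadjusted p under 0.05 in edgeR, of which 3 were higher and 5 lower. This share of 53.3% stood beside 50% of the tested cyclases and 19.8% of all tested genes. None met the criteria in edgeR and 3 did in DESeq2 (1 higher, 2 lower), or 20% against 4.78% of all tested genes. Pde8a and Pde8b are cyclic AMP-specific enzymes that restrain steroid production in steroidogenic cells. Pde8a, the phosphodiesterase of highest level, had FPKM of 13.5, 13.5, 12, 12.2 and 13.3 in WT and of 13.9, 15.3, 15.7 and 14.9 in ERβKO ovaries. The genotypes did not overlap, but the step between them was small. Its log2 fold change was 0.19 ± 0.07 (edgeR's quasi-likelihood test, adjusted p = 0.161), below the limit of 0.4. FPKM did not overlap between the genotypes for 4 of the 39 tested members, 2 higher (Prkar2b and Pde8a) and 2 lower (Pde4a and Adcyap1). Over all tested genes the share was 7.61% (4.29% higher and 3.31% lower). The count of 4 was not tested against this share.

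Pde8b had FPKM of 5.25, 5.65, 3.56, 4.06 and 4.01 in WT and of 5.93, 5.89, 5.41 and 6.43 in ERβKO ovaries. WT replicate 2 lay above ERβKO replicate 3, which was the only overlap. On the log2 scale it was higher by 0.42 ± 0.11, with an adjusted p of 0.0823 by edgeR's quasi-likelihood test and 0.0175 by DESeq2. It passed in edgeR as well without WT replicate 2 (0.47, adjusted p = 0.0384). Pde8b met the criteria in 2 of 19 alternatives, these and no others. Pde7b, of another cyclic AMP-specific family, was at 6.85 ± 0.714 FPKM in WT and 8.63 ± 1.08 in ERβKO ovaries (log2 fold change 0.33 ± 0.10).

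Of the 15 phosphodiesterases, 11 had a negative fold change, and the 5 of them with an unadjusted p under 0.05 were Pde1a, Pde1b, Pde4a, Pde4b and Pde10a. Pde1b, which calcium and calmodulin activate, had FPKM of 2.21, 2.25, 3.40, 2.38 and 1.85 in WT and of 2.00, 1.60, 1.40 and 1.45 in ERβKO ovaries. WT replicate 3 was the highest, and WT replicate 5 lay below ERβKO replicate 1. A log2 fold change of -0.60 ± 0.19 was found (adjusted p = 0.124 by edgeR's quasi-likelihood test, 0.0418 by DESeq2). Pde4a, a cyclic AMP-specific enzyme, had FPKM of 2.46, 2.43, 2.30, 2.35 and 2.40 in WT and of 2.20, 1.83, 1.09 and 1.32 in ERβKO ovaries. The WT ovaries lay close together and all above the widely spread ERβKO ovaries. Its log2 fold change was -0.43 ± 0.14, with an adjusted p of 0.128 by edgeR's quasi-likelihood test and 0.0438 by DESeq2.

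Pde1a had 12.6 ± 2.86 FPKM in WT and 8.89 ± 1.28 in ERβKO ovaries (log2 fold change -0.57 ± 0.20). It met the criteria in 1 of 19 alternatives, edgeR without WT replicate 2 (-0.70). Pde4b was at 3.21 ± 1.12 and 2.05 ± 0.285 FPKM (log2 fold change -0.64 ± 0.23), and Pde10a, which cleaves both cyclic nucleotides, at 2.15 ± 0.633 and 1.69 ± 0.290 (log2 fold change -0.50 ± 0.18). The adjusted p of these genes by edgeR's quasi-likelihood test were 0.147 (Pde1a), 0.163 (Pde4b) and 0.177 (Pde10a). The luteal markers were lower as a list (9 of 10 with a negative fold change, 0 called), and their part in the phosphodiesterase values was not tested. Pde3a, which keeps cyclic AMP low when oocytes mature, was at 2.19 ± 0.227 and 2.13 ± 0.275 FPKM, and the related Pde3b at 3.22 ± 0.597 and 3.17 ± 0.900. The remaining enzymes Pde2a, Pde4c, Pde4d, Pde7a and Pde1c had log2 fold changes between -0.16 (Pde4c) and 0.16 (Pde1c), and Pde1c and Pde4c were near 0.1 FPKM. Of the exon bases of Pde2a, 99.2% lie in other annotated genes of the same strand (Arap1 and another entry named Pde2a), so that its counts are uncertain. The summed FPKM of the 15 phosphodiesterases was 67.7 ± 2.51 in WT and 65.1 ± 2.50 in ERβKO ovaries.

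None of the 4 effectors met the criteria. Creb1, the transcription factor phosphorylated by protein kinase A, had FPKM of 12.1, 10.3, 12.4, 11.1 and 11.6 in WT and of 9.97, 9.05, 9.14 and 11.2 in ERβKO ovaries. The groups overlapped, with ERβKO replicate 4 inside the WT range. On the counts the log2 fold change was -0.08 ± 0.06 (edgeR's quasi-likelihood test, adjusted p = 0.533), while the exact permutation test on the mean FPKM gave p = 0.0476. The related factor Crem was at 7.43 ± 1.47 and 7.46 ± 1.21 FPKM. The exchange factor genes Rapgef3 (EPAC1) and Rapgef4 (EPAC2), direct targets of cyclic AMP, had log2 fold changes of 0.16 ± 0.12 and 0.14 ± 0.17. Antisense genes lie opposite 8.01% of the exon bases of Crem, 6.11% of Rapgef3 and 5.05% of Rapgef4. The permutation test was run on all 41 members. Its p is given here for some of them only, and none was adjusted for the number of tests.

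Another 53 genes of the same pathway or of related families were read from the same fit. They included anchoring proteins, kinase inhibitors, other G proteins and phosphodiesterases, partners of CREB, receptors coupled to Gs and genes induced by cyclic AMP. Of the 49 tested, 0 met the criteria in edgeR, 8 were higher and 5 lower at an unadjusted p under 0.05 (26.5%, against 19.8% of all tested genes), and DESeq2 called 2 (4.08%, against 4.78% of all tested genes). These were the FSH receptor gene Fshr, which is also on the granulosa list, and Bves, a Popeye protein that binds cyclic AMP. Fshr was at 8.83 ± 3.50 FPKM (6.09 to 14.7) in WT and 18.7 ± 5.32 (11.8 to 24.5) in ERβKO ovaries, with a log2 fold change of 1.06 ± 0.26 (adjusted p = 0.0664 by edgeR's quasi-likelihood test, 0.0040 by DESeq2). Bves was at 1.94 ± 0.373 FPKM in WT and 1.13 ± 0.395 in ERβKO ovaries, with a log2 fold change of -0.76 ± 0.23 (adjusted p = 0.117 and 0.0348). Of the 6 CREB partners, Crtc1, Crtc2 and Crtc3 had an unadjusted p under 0.05 in edgeR, with log2 fold changes of 0.26, 0.23 and 0.32. Their adjusted p by edgeR's quasi-likelihood test were 0.132, 0.200 and 0.0664. The rest of that list, Crebbp, Ep300 and Atf1, had log2 fold changes of 0.08, 0.05 and -0.02. Fshr and Bves were also under that unadjusted p. So were Akap8l, Pkia, Gnai1 and Gnao1, which were higher (log2 fold changes of 0.21, 0.26, 0.38 and 0.35). Calcrl, Gnai3, Fosb and Dusp1 were under it too and were lower (-0.28, -0.21, -0.83 and -1.37). The immediate early gene Dusp1 had 5.28 to 24.8 FPKM in WT and 5.18 to 6.51 in ERβKO ovaries, and the scaffold genes had log2 fold changes between -0.35 and 0.37.

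Leaving out WT replicate 2 moved the count of called members more than leaving out any other library. Over all tested genes, leaving out ERβKO replicate 2 took the calls from 287 to 60, and leaving out WT replicate 2 took them to 912. WT replicate 2 was the WT ovary nearest the ERβKO ovaries on the first principal component. Calls gained by leaving it out are therefore not separate support for a difference. Without WT replicate 2, edgeR called 7 of 38 tested members (18.4%), where it called 5.51% of all tested genes (2.95% higher and 2.56% lower): Adcy2, Prkar2b, Pde8b and Vipr1 were higher, and Prkaca, Pde1a and Adcyap1 were lower. The replicates came from separate mice. WT replicates 4 and 5 carry library numbers over 200 and the other libraries lower ones, with no ERβKO library among the former. With the 7 lower-numbered libraries alone, Prkar2b had a log2 fold change of 0.83 and an adjusted p of 0.105 by edgeR's quasi-likelihood test, and 51 of all tested genes were called. The plot of adjusted p by alternative shows how far single members moved.

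**Figure D5:**
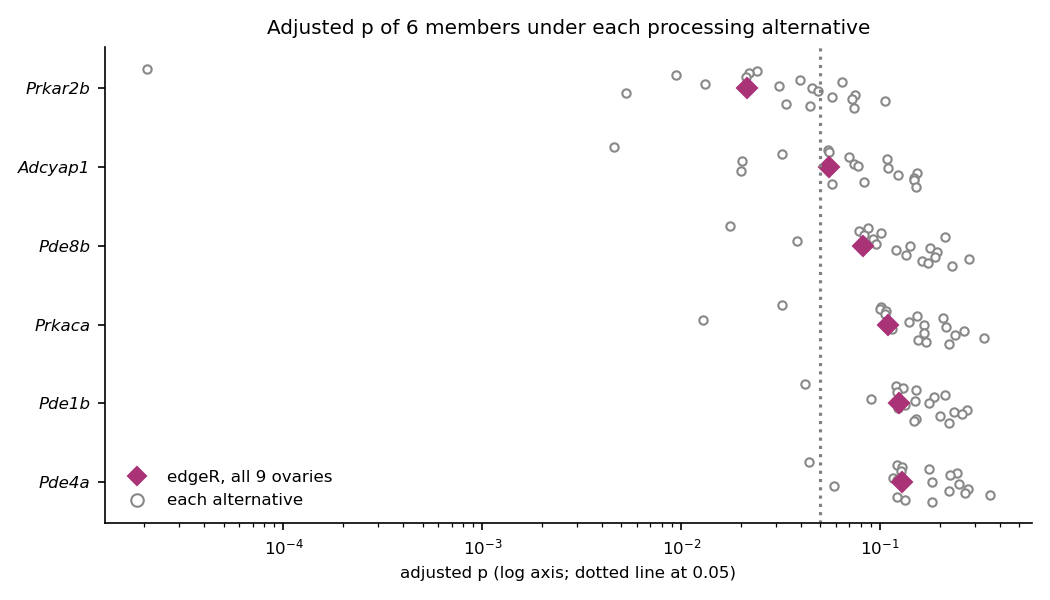
Adjusted p of 6 members on a log axis, with a diamond for edgeR on all 9 ovaries and an open circle for each alternative, and a dotted line at 0.05. Prkar2b lay under 0.05 in 13 of 19 alternatives and Adcyap1 in 4 of 18, while most values of the other genes lay above the line.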

How the data were processed

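Whole ovaries of 5 WT and 4 ERβKO mice were sequenced, 1 library each. According to the methods of the study and the submitters' processing notes, the authors made stranded libraries from polyadenylated RNA, read pairs of 150 bp, trimmed the reads with Trim Galore, mapped them to GRCm38 with STAR and counted them with FeatureCounts. The deposited counts are raw fragments per gene, and the deposited FPKM were made by the authors in StringTie. A strand setting for the counting is not given in the sources used here.

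Counts of 46078 genes were filtered (edgeR's filterByExpr, 16722 kept), scaled by TMM and fitted by genotype with edgeR 4.0.16 (R 4.3.3), with Benjamini-Hochberg adjustment over all tested genes. Following the study's methods, a call needed an adjusted p below 0.05, a log2 fold change beyond 0.4 in either direction and more than 1 FPKM on average in WT or ERβKO ovaries. DESeq2 1.42.0, limma 3.58.1 on log2(FPKM + 1) or log2(FPKM + 0.1), other scalings and filters, a replicate block and each library left out were alternatives. The common biological coefficient of variation was 0.179. Library totals ran from 12353740 to 18717510 fragments. Mean FPKM were compared by permutation of the genotypes, exact and two-sided. Standard errors came from the log2 fold change and the F statistic. The scripts were tested on simulated data.

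Members and lists were chosen with earlier results of these data known. Values per ovary are given for the 11 members that met the criteria in edgeR or DESeq2, that had an unadjusted p under 0.05 without overlap in FPKM, or that had the highest level of their class; of the other pathway genes, those called by DESeq2 were named first, and Crtc1, Crtc2, Crtc3 and Dusp1 were chosen after their values were seen. Crebbp, Ep300 and Atf1 were then named as the rest of the list of CREB partners. The remaining pathway genes with an unadjusted p under 0.05 were added last. Chromatin data were not used here. Some marker values are not reported here.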

Additional observations from a re-analysis of the deposited data

Results flagged for a closer look

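In 82 groups of ovaries examined, there were 4, from 3 members, in which the FPKM of 1 ovary lay far from the others of its genotype, by the gap to its nearest neighbour over the range of the group. Chance alone gives such a gap in about 1 of 20 groups. For Adcyap1 it was ERβKO replicate 1 (0.897 of the range), with 0.682 FPKM against at most 0.0706 in the other ERβKO ovaries. For Prkar2a it was ERβKO replicate 1 (0.855). For Gnas it was ERβKO replicate 2 (0.848), at 269 FPKM, and WT replicate 3 (0.742), at 277 FPKM.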

How the results depend on the processing

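The count of members called (1 of 39) became 5 with DESeq2, 2 without a filter on low counts, 0 with the libraries numbered below 200 and 0 with limma on log2(FPKM + 1) without a filter. It ranged from 0 to 7 with single libraries left out: 7 without WT replicate 2, 2 without ERβKO replicate 1, and 0 without WT replicate 1 or ERβKO replicate 2, 3 or 4. The count of other pathway genes called (0 in edgeR) became 2 with DESeq2 and 1 without a filter, and ranged from 0 to 2 with single libraries left out. The log2 fold change of Adcyap1r1 ranged from -0.20 to 0.17 with single libraries left out and turned to 0.17, 0.01 and 0.06 without WT replicate 3, ERβKO replicate 2 and ERβKO replicate 3, and to 0.15, 0.20 and 0.15 in limma with pseudocounts of 1, 0.1 and 1 without a filter. The causes were not tested. Over all tested genes, calls numbered 287, but 800 with DESeq2, 155 with the replicate block, 67 with limma without a filter, and 60 (without ERβKO replicate 2) to 912 (without WT replicate 2) with single libraries left out. The replicate block kept 1 member called and 0 other pathway genes. Replicate numbers were shared by name only: the deviations of same-numbered ovaries correlated at 0.0948, 0.130, -0.0427 and -0.0105, and 0 of 8 ovaries correlated best with their own number. Of 208 alternative values for single members, 187 kept direction and side of the threshold. Adcyap1 was not tested at a minimum of 10 counts in every library, since the ERβKO ovaries held 39, 1, 3 and 3 counts. Its fold change rests on these low counts.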
